A study of Mus musculus with 24 samples.

Results

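Expression of 7 genes known from the olfactory and airway epithelium was followed across 4 brain areas of mice exposed to chronic mild stress (CMS) and of control mice. The genes were Cyp2f2, Cbr2, Bpifa1, Bpifb9b, Stoml3, Omp and Scgb1a1. They were chosen by their names and by their measured values in the prefrontal cortex, where several of them were high after CMS, so the prefrontal values are a description here, calls among them included, and no p is given for them. Every probe set annotated to one of them alone was used, which gave 10 probe sets among 45037 and 7 genes among 18193. Bpifb9b, Stoml3 and Omp had 2 probe sets each and the other genes had 1.

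The mice were wild-type C57BL/6 males, labelled as 6 to 8 weeks old, an age that the methods give for the purchase of the mice, before the weeks of stress. CMS mice received unpredictable mild stressors for 4 weeks on 6 days per week, and control mice received none. RNA of the prefrontal cortex, the cerebral cortex, the hippocampus and the amygdala was hybridised to Affymetrix whole-genome mouse arrays, with 3 CMS and 3 control arrays per area and 24 arrays in all. In the sources used here the RNA is called pooled in one place and taken from independent mice in another, so p-values measure the spread between these arrays, which may be technical in part.

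The olfactory epithelium lines the upper nasal cavity and is built from ciliated olfactory sensory neurons, from sustentacular cells that support them and carry enzymes for airborne chemicals, and from secretory glands. The axons of the sensory neurons run through the skull base into the olfactory bulb, which lies directly in front of the frontal cortex. Club cells of the lower airway share with sustentacular cells a set of detoxifying enzymes and secrete small proteins into the airway lining.

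By role, Omp encodes olfactory marker protein, a cytoplasmic protein of mature olfactory sensory neurons, and Stoml3 encodes a stomatin-like membrane protein found in olfactory sensory neurons and in mechanosensory neurons. Cyp2f2, a cytochrome P450, and Cbr2, a carbonyl reductase, are oxidation and reduction enzymes of club cells, and Cyp2f2 is also made in olfactory mucosa. Bpifa1, also called Plunc, and Bpifb9b encode secreted proteins of the BPI fold family of the nasal and upper airway lining. Scgb1a1 encodes the main secreted protein of club cells.

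Promoter sequences are shown for 4 of the genes to give the sequence context of members that were high together. They run from 250 bases before to 50 bases after the annotated start, and are from RefSeq on build GRCm38.p6. Capitals mark matches to the forkhead core TGTTTNC on either strand, a motif bound by the forkhead factors of airway and ciliated epithelium.
Bpifb9b, chr2:154306994-154307293, plus strand: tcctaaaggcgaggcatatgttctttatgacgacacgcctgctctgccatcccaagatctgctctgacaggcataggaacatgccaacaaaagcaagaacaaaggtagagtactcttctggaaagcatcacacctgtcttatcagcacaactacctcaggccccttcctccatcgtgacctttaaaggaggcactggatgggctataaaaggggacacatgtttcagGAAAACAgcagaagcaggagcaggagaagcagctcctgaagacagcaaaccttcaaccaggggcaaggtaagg
Bpifa1, chr2:154142630-154142929, plus strand: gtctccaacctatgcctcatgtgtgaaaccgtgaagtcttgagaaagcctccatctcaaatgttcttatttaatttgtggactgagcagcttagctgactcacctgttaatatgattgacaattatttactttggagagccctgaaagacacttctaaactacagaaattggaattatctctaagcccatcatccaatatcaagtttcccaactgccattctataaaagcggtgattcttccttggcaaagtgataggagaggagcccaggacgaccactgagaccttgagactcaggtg
Cbr2, chr11:120731972-120732271, minus strand: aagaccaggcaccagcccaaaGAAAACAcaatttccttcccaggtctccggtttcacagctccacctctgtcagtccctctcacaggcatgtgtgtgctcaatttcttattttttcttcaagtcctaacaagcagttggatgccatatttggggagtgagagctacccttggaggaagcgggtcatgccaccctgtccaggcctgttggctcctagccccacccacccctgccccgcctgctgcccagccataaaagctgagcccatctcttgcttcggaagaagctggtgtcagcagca
Stoml3, chr3:53488457-53488756, plus strand: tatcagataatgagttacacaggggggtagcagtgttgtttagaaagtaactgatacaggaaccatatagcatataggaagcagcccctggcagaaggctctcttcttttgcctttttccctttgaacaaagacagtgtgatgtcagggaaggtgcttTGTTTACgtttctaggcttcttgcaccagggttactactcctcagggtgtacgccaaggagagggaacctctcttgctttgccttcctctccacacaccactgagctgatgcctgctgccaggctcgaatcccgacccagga
The table held a window for 5 of the 7 genes. A forkhead core began at -23 in Bpifb9b, at -229 in Cbr2 and at -92 in Stoml3, counted from the start, and the Bpifa1 and Cyp2f2 windows had no match. This core was present in 20.5% of 32851 mouse promoter windows of the same length, which do not cover every chromosome. The palindromic core CCCNNGGG, bound by the Olf/EBF factors of olfactory sensory neurons, had 0 matches in the 5 windows. It was present in 13.7% of the same 32851 windows. The GC content of the 5 windows ranged from 42.3% in Bpifa1 to 54.7% in Cbr2. These are letter matches, and binding was not measured.

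All expression values below are centred log2 values: each probe set's log2 signal minus its own median over the 24 arrays, so 1 unit is a 2-fold difference and 0 is the median array. The deposited table holds no background or absolute level, and levels of different genes cannot be ranked. An array near 0 is an array near the median of that gene, which does not show that its RNA was present or absent.

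In the prefrontal cortex of CMS mice, transcripts of 6 of the 7 genes were higher than in control prefrontal cortex, and Scgb1a1 was close to its median in both. With quantile normalization, which was applied to the centred values and not to signals, the direction of Omp turned. The 2 BPI fold genes and Cyp2f2 were near 0 in control mice and high in CMS mice, while Omp, Stoml3 and Cbr2 were already above the other areas in control mice. For 7 of the 10 probe sets the CMS mean was higher by more than 2-fold at an adjusted p below 0.05 in limma, against 0.0999% of all probe sets. Because this contrast chose the genes, nothing is read from that count. Every CMS array lay above every control array for all 10 probe sets, a pattern that 39.6% of all probe sets had in this area.

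**Figure D1:**
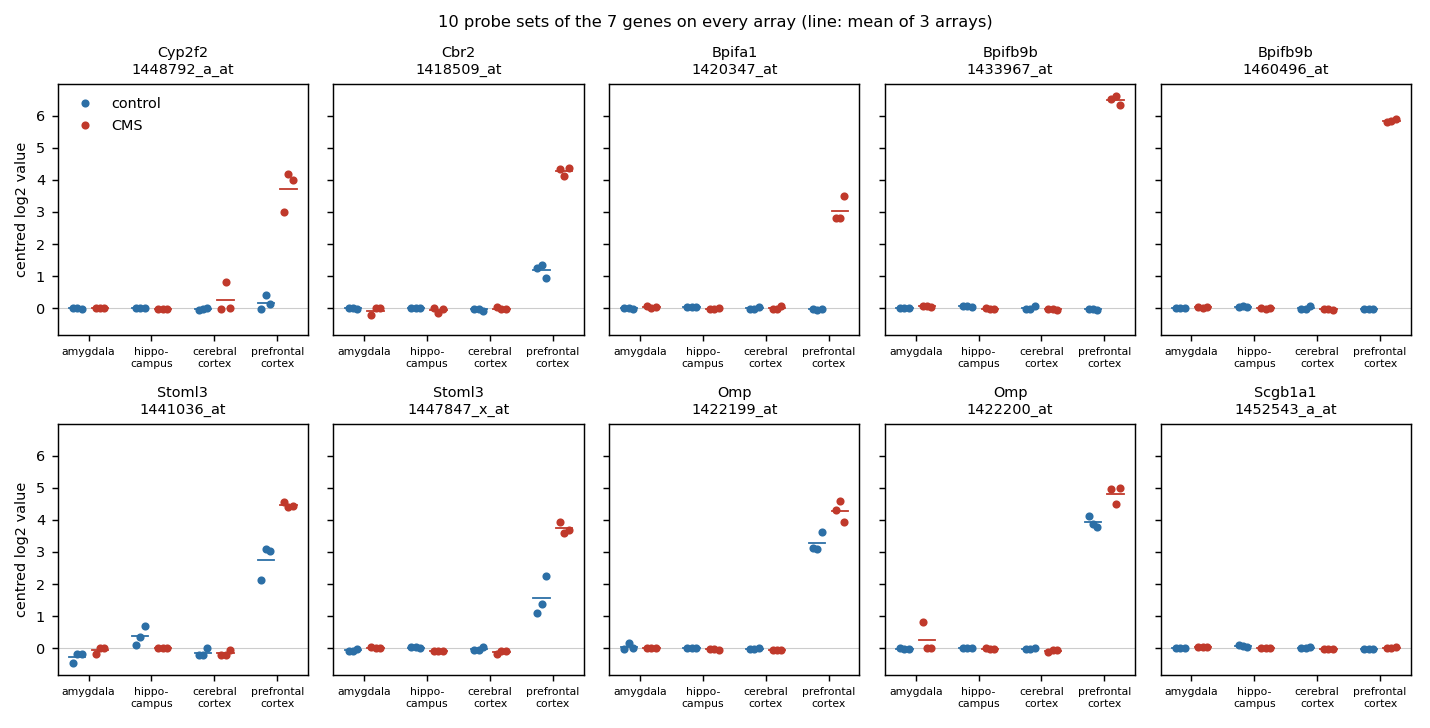
Centred log2 value of each of the 10 probe sets (vertical axis) on each of the 24 arrays, by brain area (horizontal axis) and treatment (blue, control; red, CMS); points are single arrays and lines are means of 3 arrays. The CMS prefrontal arrays stand at 6.32 to 6.62 for Bpifb9b 1433967_at, while 162 of the 180 values outside the prefrontal cortex lie within 0.1 of 0. Control prefrontal arrays are raised for Cbr2, Stoml3 and Omp. The gap between treatments in Omp, shown here as deposited, turned direction with quantile normalization of the centred values.

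Bpifb9b had the widest gap of the 10 probe sets. On 1433967_at the 3 CMS prefrontal arrays read 6.51, 6.62 and 6.32 and the control arrays -0.013, -0.024 and -0.060. The second probe set, 1460496_at, read 5.81, 5.83 and 5.89 after CMS and -0.013, -0.017 and -0.037 in control mice. The arrays of a treatment were close together on both probe sets, and the control arrays were at the level of the other areas. The mean difference was 6.52 (SE 0.079, n = 3 per group), or 91.7-fold, on 1433967_at and 5.87 (SE 0.025), or 58.4-fold, on 1460496_at. Bpifb9a, the gene next to it, is a close paralogue with no probe set of its own symbol here, so signal from it cannot be told apart from that of Bpifb9b.

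Bpifa1, a secreted antimicrobial and surfactant protein of the nasal passages, read 2.82, 2.80 and 3.48 on the CMS prefrontal arrays and -0.032, -0.042 and -0.037 on the control arrays. The third CMS array stood above the others. The means were 3.03 ± 0.39 and -0.037 ± 0.0049 (SD, n = 3 each), a difference of 3.07 or 8.41-fold.

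Cyp2f2, which oxidises naphthalene and other small aromatic compounds, read 3.00, 4.18 and 3.99 after CMS and -0.017, 0.43 and 0.12 in control mice. The first CMS array was about 1 unit below the other two, and 1 control array was also raised. The means were 3.73 ± 0.63 and 0.18 ± 0.23, a difference of 3.55 or 11.7-fold.

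Cbr2, which reduces carbonyl compounds, read 4.34, 4.11 and 4.36 after CMS and 1.24, 1.34 and 0.95 in control mice. Unlike the BPI fold genes it stood above 0 on each of the control prefrontal arrays. The means were 4.27 ± 0.14 and 1.18 ± 0.20, a difference of 3.09 or 8.54-fold.

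Stoml3 was high in both treatments. On 1441036_at the CMS arrays read 4.55, 4.40 and 4.42 and the control arrays 2.12, 3.09 and 3.04. On 1447847_x_at they read 3.93, 3.59 and 3.68 after CMS and 1.10, 1.39 and 2.24 in control mice. Control arrays were more spread than CMS arrays, and the array that stood apart was the first on one probe set and the third on the other. The differences were 1.71 (SE 0.28), or 3.26-fold, and 2.16 (SE 0.32), or 4.46-fold, and they were 0.56 and 1.33 with quantile normalization.

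Omp was also high in both treatments. On 1422199_at the CMS arrays read 4.30, 4.59 and 3.93 and the control arrays 3.12, 3.09 and 3.63. On 1422200_at they read 4.97, 4.50 and 4.98 after CMS and 4.13, 3.88 and 3.78 in control mice. The groups did not overlap on either probe set, but the nearest arrays on 1422199_at were 3.93 and 3.63. CMS means were higher by 0.99 (SE 0.23, 1.99-fold) and 0.89 (SE 0.17, 1.85-fold), both just under the 2-fold threshold, and with quantile normalization the differences were -0.18 and -0.065.

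Scgb1a1, the defining secretory product of club cells, read 0.00019, -0.0011 and 0.051 on the CMS prefrontal arrays and -0.010, -0.020 and -0.020 on the control arrays. All of these are close to its median over the 24 arrays. The difference was 0.033 (SE 0.020), or 1.02-fold.

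Control mice alone were also compared between areas. All 3 control prefrontal arrays lay above all 9 control arrays of the other areas for 5 of the 10 probe sets, namely those of Cbr2, Stoml3 and Omp, against 6.87% of all probe sets. The control prefrontal arrays are part of the contrast that chose the genes, so this too is a description. Averaged over its probe sets, control prefrontal Omp stood 3.60 above the mean of the other areas, Stoml3 2.18 and Cbr2 1.19. Cyp2f2 stood 0.18 above, and Bpifa1, Bpifb9b and Scgb1a1 stood between -0.049 and -0.043. In CMS mice the same quantity was 4.53 for Omp, 4.16 for Stoml3, 4.32 for Cbr2 and 3.65 for Cyp2f2. It was 3.03 for Bpifa1, 6.17 for Bpifb9b and 0.014 for Scgb1a1.

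**Figure D2:**
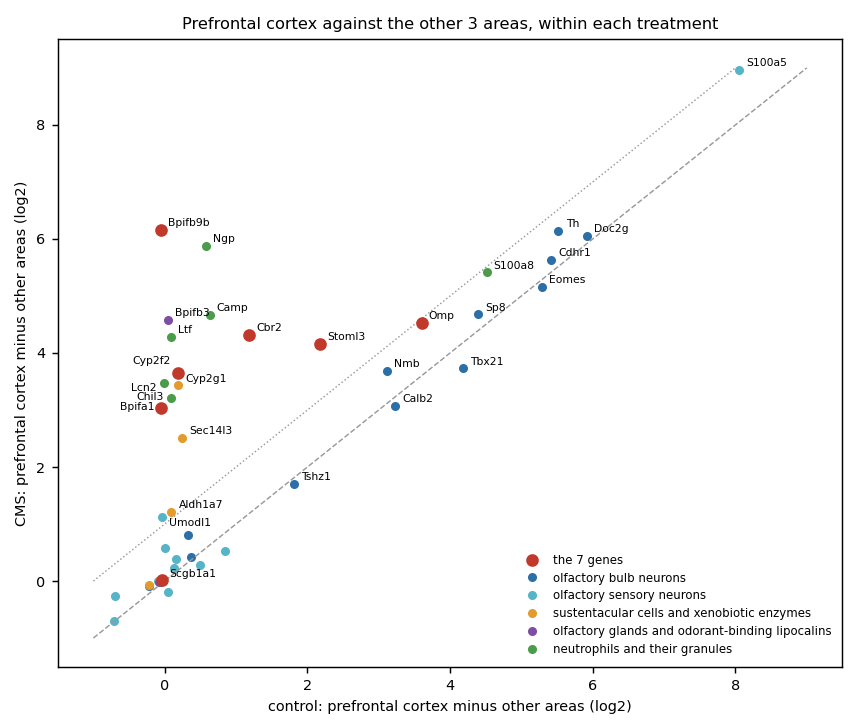
Mean of the 3 prefrontal arrays minus the mean of the 9 arrays of the other areas, in log2 units, for control mice (horizontal axis) against CMS mice (vertical axis); each point is a gene, coloured by list, the dashed line marks equal values and the dotted line a CMS value higher by 1. Bpifb9b lies at -0.049 and 6.17, Omp at 3.60 and 4.53 and S100a5 at 8.05 and 8.96, and genes of olfactory bulb neurons lie nearer the dashed line. The distance of Omp from the dashed line is as deposited and turned direction with quantile normalization of the centred values.

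The other areas gave no call for any of the 7 genes. In the amygdala 0 of 10 probe sets passed both an adjusted p below 0.05 and a 2-fold difference in limma, against 1.19% of all probe sets. In the hippocampus the count was 0 of 10 against 0.651%, and in the cerebral cortex 0 of 10 against 1.12%. With an unadjusted p below 0.05 and no fold threshold the counts were 4, 7 and 1 of 10, where 37.4%, 53.7% and 22.1% of all probe sets passed in the amygdala, hippocampus and cerebral cortex, and the methods' t-test called 0 in each of these areas. These tests are no independent evidence, since the genes were chosen with results of all areas known.

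In the amygdala the differences between CMS and control ran from -0.072 in Cbr2 to 0.28 in Omp 1422200_at, with a median of 0.043 against 0.027 over all probe sets. By adjusted p alone 1 probe set was higher, Bpifb9b 1433967_at at 0.053 (limma adjusted p = 0.0419), where 11.4% of all probe sets were. The Omp value rests on 1 array. The first CMS amygdala array read 0.80 on 1422200_at against -0.0053 and 0.012 on the others, and the same array read -0.0081 on the other Omp probe set.

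In the hippocampus every difference was negative, from -0.38 in Stoml3 1441036_at to -0.023 in Omp 1422200_at, with a median of -0.062 against -0.046 over all probe sets. By adjusted p alone 7 of the 10 were lower, where 35.0% of all probe sets were. The lowest adjusted p was that of Stoml3 1447847_x_at, lower by 0.10 in CMS mice (difference -0.10, SE 0.012, limma adjusted p = 0.0108). Bpifa1 differed by -0.056, Cyp2f2 by -0.039 and Scgb1a1 by -0.069. On the linear scale these are ratios of CMS to control of 0.931 to 0.974. The Stoml3 difference of -0.38 had an adjusted p of 0.104 in limma, with control arrays at 0.11, 0.34 and 0.69.

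In the cerebral cortex the differences ran from -0.098 in Stoml3 1447847_x_at to 0.28 in Cyp2f2, with a median of -0.032 against -0.033 over all probe sets. The lowest adjusted p in limma was 0.210. Cyp2f2 rests on 1 array here. The second CMS array read 0.81, while the first and the third read -0.020 and -0.0041 and the control arrays -0.041, -0.022 and 0.00035.

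The size of the CMS effect was also compared between these areas, and the areas were compared within control mice. In limma 0 of 10 probe sets were called for the CMS effect in amygdala minus hippocampus (2.09% of all probe sets), in amygdala minus cerebral cortex (3.63%) and in hippocampus minus cerebral cortex (1.37%). Between control arrays the same count was 0 of 10 for amygdala minus hippocampus (6.03%), for amygdala minus cerebral cortex (4.51%) and for hippocampus minus cerebral cortex (5.97%). Without the fold threshold, 2, 2 and 0 of 10 probe sets had an adjusted p below 0.05 in the first set of contrasts, where 44.5%, 43.1% and 10.9% of all probe sets had. In the control contrasts the counts were 2, 0 and 2 of 10, where 43.2%, 26.5% and 40.8% had. The widest of these differences were those of Stoml3. Its probe set 1441036_at in control mice was 0.66 higher in the hippocampus than in the amygdala (amygdala minus hippocampus -0.66, SE 0.19, limma adjusted p = 0.00929) and 0.51 higher than in the cerebral cortex (SE 0.19, limma adjusted p = 0.0369). On this probe set only 7 of the 18 arrays outside the prefrontal cortex lay within 0.1 of 0, where the other 9 probe sets had 16 to 18. Its second probe set had a range of -0.18 to 0.044 over the same arrays, so the 2 Stoml3 probe sets differ here.

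Over the 24 arrays the genes fell into a graded order of likeness. Pearson's r was 0.993 between Bpifa1 and Bpifb9b and 0.97 between Stoml3 and Omp. Cyp2f2 followed Bpifa1 (0.976) and Bpifb9b (0.977) more closely than it followed Omp (0.752). Cbr2 lay between the groups, with 0.957 to Bpifb9b, 0.959 to Stoml3 and 0.899 to Omp. Scgb1a1 had an r of -0.15 to 0.121 with the other 6 genes. These coefficients describe the same 24 arrays, which form clusters by area. Among Bpifa1, Bpifb9b and Cyp2f2 the 3 CMS prefrontal arrays weigh most. Omp, Stoml3 and Cbr2 were also raised on the control prefrontal arrays, at means of 3.60, 2.16 and 1.18, and those arrays weigh in their coefficients too.

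Among the 4763 other genes with a range of at least 1, those most like Omp were S100a5 (r = 0.996), Clca3a1 (0.993) and Doc2g (0.991). S100a5 is a calcium-binding protein of olfactory sensory neurons, and Doc2g is a synaptic protein gene abundant in mitral and tufted cells of the olfactory bulb. Those most like Bpifb9b were Bpifb3 (0.999), Lcn2 (0.996) and Ltf (0.996), and Bpifb3 and Lcn2 also led for Bpifa1 (0.992 each). Cyp2f2 was most like Cyp2g1 (0.985), a cytochrome P450 of the olfactory mucosa. Cbr2 was most like Camp (0.984) and Ngp (0.979), and Stoml3 most like Pglyrp1 (0.981), all genes of neutrophil granules. For the pairs named so far Spearman's rho, computed on ranks, was lower than r. It ran from 0.614 for Cbr2 and Ngp to 0.958 for Omp and S100a5, with 0.697 for Bpifa1 and Bpifb3. No gene exceeded a Pearson r of 0.784 with Scgb1a1.

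Genes of the same tissue were followed as lists, compiled with earlier results of these data known. Their counts and p-values are therefore no independent evidence. Calls in the prefrontal cortex are read against 0.154% of all genes called higher and 0.0934% called lower. Of 8 measured genes of sustentacular cells and xenobiotic enzymes, 3 rose after CMS and 5 did not pass. Cyp2g1 read 2.69, 3.68 and 3.88 on CMS arrays and 0.19, -0.0070 and 0.39 on control arrays, a difference of 3.23 (SE 0.33, limma adjusted p = 0.0106). The first CMS array was the lowest of the 3 for Cyp2g1, as it was for Cyp2f2. Sec14l3, a lipid-binding protein, rose by 2.31 (SE 0.10, limma adjusted p = 0.00137), and Aldh1a7, an aldehyde dehydrogenase, by 1.15 (SE 0.23, limma adjusted p = 0.0474). Cyp1a2, Cyp4b1, Fmo2, Aldh3a1 and Adh7 differed by -0.0036 to 0.045, and the median over the 8 genes was 0.041 against 0.019 over all genes.

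Of 9 measured genes of olfactory glands and odorant-binding lipocalins, 1 rose, Bpifb3, which read 4.38, 4.76 and 4.56 after CMS and 0.22, -0.024 and -0.032 in control mice (difference 4.51, SE 0.12, limma adjusted p = 0.000297). The other 8, among them Obp1a, Obp2a and Muc5b, differed by 0.015 to 0.042. The median of this list was 0.031.

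Of 13 measured genes of olfactory sensory neurons, 0 were called, and 4 had an unadjusted p below 0.05, as 23.3% of all genes had in this area. S100a5 read 8.98, 9.14 and 8.70 after CMS and 7.95, 8.00 and 8.17 in control mice, a difference of 0.90 under the 2-fold threshold (SE 0.13, limma adjusted p = 0.0192). Umodl1 read 0.69, 0.35 and 2.30 after CMS and -0.020, -0.014 and -0.045 in control mice (limma adjusted p = 0.274). Cnga4, a subunit of the cyclic nucleotide channel of olfactory cilia, read 0.38, 1.15 and 0.18 after CMS and 0.0017, -0.012 and 0.014 in control mice (limma adjusted p = 0.270), so the CMS arrays were spread but above the control arrays. The channel subunit Cnga2 and the transcription factor Ebf2 had prefrontal means within 0.1 of 0 in both treatments. The 39 measured odorant receptors had 0 calls and 0 at an unadjusted p below 0.05 in limma, with a mean level of -0.00056 to 0.026 in CMS and -0.037 to 0.0062 in control prefrontal arrays.

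Airway and general epithelial lists had no call. They were 12 genes of airway secretory cells, 16 epithelial keratins and junction genes and 14 genes of motile cilia, each with 1 gene at an unadjusted p below 0.05. Among the airway genes Aqp5 differed by 0.23, Agr2 by 0.14 and Scgb3a2 by 0.014. The mean level of the airway secretory list was 0.026 to 0.067 in CMS and -0.046 to 0.0094 in control prefrontal arrays. Krt18 and Cdh1, the adhesion protein of epithelial junctions, had the widest differences of the junction list at 0.54 and 0.35, and Krt5 and Epcam were at 0.091 and 0.21. In the cilia list they were Ccdc153 at -0.52 and Tppp3 at -0.36.

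**Figure D3:**
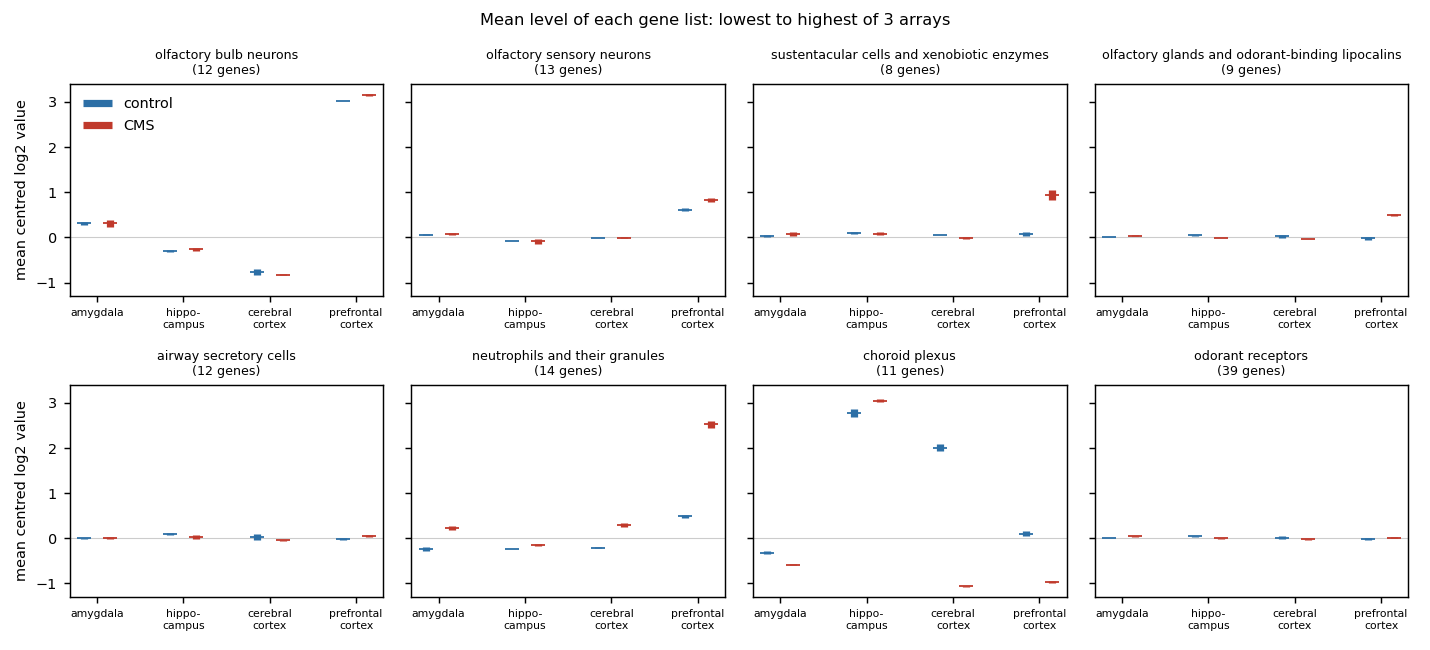
Mean centred log2 value over the measured genes of 8 lists (vertical axis) by area (horizontal axis) and treatment (blue, control; red, CMS); each bar spans the lowest to the highest of 3 arrays and the dash is its midpoint. Olfactory bulb neurons stand at 3.02 to 3.03 in control and 3.14 to 3.18 in CMS prefrontal arrays, neutrophil genes at 0.457 to 0.525 and 2.45 to 2.59, and airway secretory genes and odorant receptors stay near 0 in every group.

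Most genes of olfactory bulb neurons were high in this area. The 12 measured genes had a mean level of 3.02 to 3.03 in control and 3.14 to 3.18 in CMS prefrontal arrays. Doc2g averaged 5.91 in control and 6.18 in CMS mice, Th, the enzyme of dopamine synthesis, 5.73 and 6.03, and Eomes, a transcription factor of mitral and tufted cells, 5.20 and 5.35. Barhl2 (-0.046 and 0.016), Synpr (-0.075 and 0.23) and Reln (0.24 and 0.22) were closer to 0. Of the 12 genes, 0 were called and 8 had an unadjusted p below 0.05, against the same 23.3% of all genes, with a median difference of 0.19. The widest differences were those of Tbx21, a mitral cell transcription factor (-0.47, limma adjusted p = 0.203), and the neuropeptide gene Nmb (0.44, limma adjusted p = 0.0758). Of 6 measured genes of olfactory ensheathing glia, which wrap the olfactory axons, 0 were called, and the widest differences were 0.57 in Fabp7 (limma adjusted p = 0.00997) and 0.29 in Npy (limma adjusted p = 0.0377), both under 2-fold. The mean level of the ensheathing glia list was 0.876 to 0.959 in control and 0.938 to 1.09 in CMS prefrontal arrays. As given above, Bpifa1, Bpifb9b and Cyp2f2 were near 0 in control mice and high in CMS mice. Bulk RNA does not separate the number of cells of a type from the RNA per cell, and how much tissue of the olfactory bulb or mucosa an array holds was not tested.

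Some neutrophil granule genes were also higher in CMS prefrontal cortex. Of 14 measured, 7 rose in the prefrontal cortex after CMS, where 0.154% of all genes were called higher. They were led by Ngp (5.30, SE 0.11) and Ltf (4.26), with Camp at 4.02, S100a8 at 3.57, Lcn2 at 3.54, S100a9 at 3.39 and Chil3 at 3.10. This list was compiled with earlier results of the same contrast known, so the count is a description and no p is given. Elane, Ctsg and Cxcr2 differed by 0.17, 0.056 and 0.0020 and did not pass. The mean level of the list was 2.45 to 2.59 in CMS and 0.457 to 0.525 in control prefrontal arrays. Lcn2 and Ltf are also made by glandular and airway epithelium. Outside the prefrontal cortex the neutrophil genes that rose were S100a8 and S100a9 in the amygdala (2.97 and 2.81) and in the cerebral cortex (3.60 and 3.80) and S100a8 in the hippocampus (1.43), while the 7 genes had no call there. Of 5 measured red blood cell genes Alas2 rose by 1.19, and of 11 measured choroid plexus genes Ttr fell by 7.15, with list levels of -0.98 to -0.95 in CMS and 0.046 to 0.16 in control arrays. In the cerebral cortex 10 of the 11 choroid plexus genes fell, where 0.357% of all genes were called in either direction, and Ttr fell by 6.91. The choroid plexus list too was compiled with earlier results of these data known, so its counts are a description. The part of these cell types in the values of the 7 genes was not tested.

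Outside the prefrontal cortex, single genes of the epithelial, olfactory and airway lists were called. No set test was run, so nothing is read from these counts against the shares of all genes. In the amygdala they were Fam183b, 1 of 14 cilia genes (-1.28, limma adjusted p = 0.0118), and Fabp7, 1 of 6 ensheathing glia genes (-1.14, limma adjusted p = 0.00166). There 0.583% of all genes were called. In the hippocampus they were Calb2, 1 of 12 bulb genes (1.11, limma adjusted p = 0.00614), and Fabp7, 1 of 6 ensheathing glia genes (-1.10, limma adjusted p = 0.00229). There 0.253% of all genes were called, and neither Calb2 nor Fabp7 was called with quantile normalization. In the cerebral cortex Krt18, 1 of 16 epithelial keratins and junction genes, was called (-2.02, limma adjusted p = 0.0268), where 0.357% of all genes were. Its control arrays read 1.27, 1.25 and 0.047, and the count of calls there was 0 when any array but the third control array was left out. Fam183b is a gene of motile cilia, Fabp7 a fatty acid binding protein of radial and ensheathing glia and Calb2 the calcium buffer calretinin of bulb and hippocampal interneurons. Cyp2g1, Sec14l3, Aldh1a7 and Bpifb3, which rose in the prefrontal cortex, were not called in another area.

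Genes beside the 7 on the chromosome were read from the RefSeq gene order, taking 10 protein-coding genes on each side. Around Bpifa1 on chromosome 2, 14 of 20 had a probe set naming them alone, and Bpifb3 and Bpifb9b were called higher in the prefrontal cortex. Bpifb2, Bpifa2, Bpifa3, Bpifa5, Bpifb1 and Bpifb5 lie in the same cluster and differed by 0.014 to 0.067. Around Cyp2f2 on chromosome 7, 13 of 20 were measured and Cyp2g1 was called higher, while Cyp2a12 beside Cyp2f2 differed by 0.019 and Cyp2b19 by 0.027. No neighbour of Cbr2, Stoml3, Omp or Scgb1a1 was called among 18, 19, 15 and 16 measured. The higher members of the BPI fold cluster were thus not adjacent, and they stood between members near 0.

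**Figure D4:**
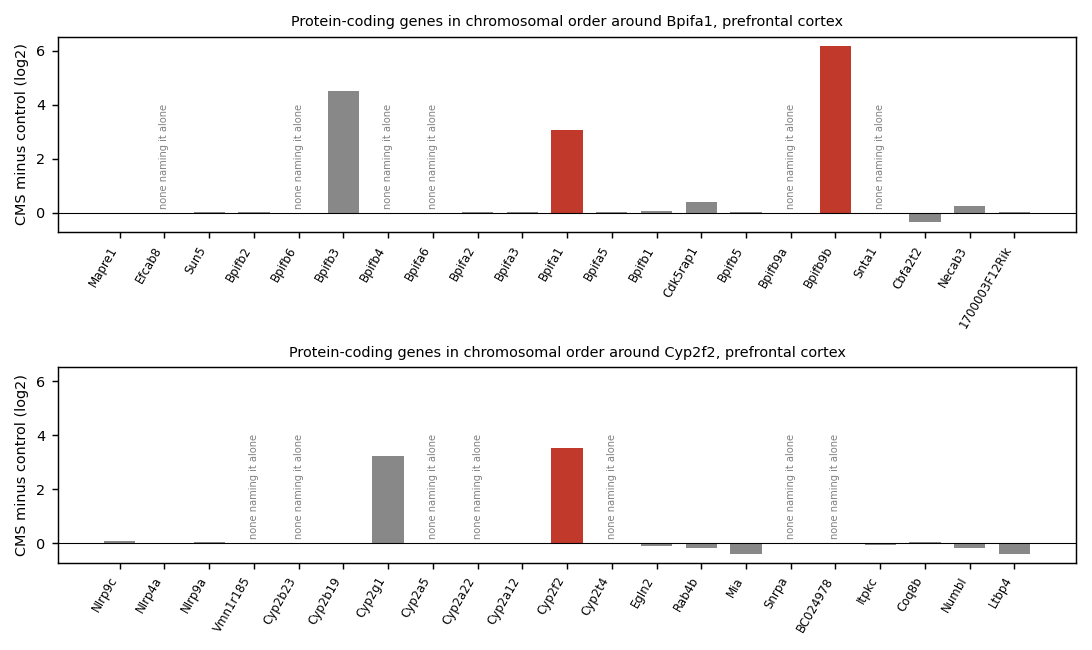
CMS minus control in the prefrontal cortex, in log2 units (vertical axis, from 0), for protein-coding genes in chromosomal order (horizontal axis, not to distance) around Bpifa1 and Cyp2f2; red bars are among the 7 genes, grey bars are neighbours, and positions marked in grey text had no probe set naming that gene alone. Bpifb3 (4.51), Bpifa1 (3.07) and Bpifb9b (6.19, mean of its 2 probe sets) stand among measured family members at 0.014 to 0.067. Cyp2g1 (3.23) and Cyp2f2 (3.55) stand among measured neighbours at -0.387 (Ltbp4) to 0.071 (Nlrp9c).

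Markers of the labelled areas were checked. Hippocampal genes had their highest mean level in the hippocampus arrays, amygdala genes in the amygdala arrays, and cerebral cortex genes in the cerebral cortex arrays. In the amygdala the mean level of the amygdala genes was 1.24 to 1.30 in control and 0.54 to 0.67 in CMS arrays. In the prefrontal cortex the cortical genes were at 0.22 to 0.31 in CMS and 0.19 to 0.27 in control arrays, ranges that overlap. No pair of arrays of a group correlated above 0.928 over all probe sets, and none was counted as a repeat.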

How the data were processed

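Total RNA of 4 brain areas was measured on 24 Affymetrix arrays, 3 per area and treatment. According to the methods, the authors summarised the probe signals with GCRMA in GeneSpring GX and applied a baseline normalization, and the deposited table holds log2 values in which each probe set's median over the 24 arrays is 0 within 5e-07. The sources used here give no versions, and the methods speak of pooled RNA while the design text speaks of independent mice. Centring removed brightness, so no filter on dim probe sets could be set.

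After 64 control probe sets were left out, 45037 probe sets were tested, of which 34945 had 1 gene symbol, 932 several and 9160 none. A gene's value averaged its probe sets. Within each area the CMS and control arrays were compared by limma 3.58.1 (R 4.3.3), moderated tests and Benjamini-Hochberg adjustment over all probe sets or genes. A call needed an adjusted p below 0.05 and a 2-fold difference. Contrasts among the areas other than the prefrontal cortex came from 1 fit of the 24 arrays with 8 group means, which took the arrays as independent. The 7 genes, the related lists and the tests were chosen with earlier results of these data known. Named genes were all 7 genes, the called genes of each list or else the 2 with the largest prefrontal difference, and some of the 5 genes per member with the highest Pearson r. Other list genes and chromosomal neighbours were named after their values were seen. With 3 arrays against 3, an exact permutation test of a single value cannot go below 0.1. Scripts were tested on simulated data. Alternatives were the methods' t-test, 1 fit of all arrays, quantile normalization, median centring, trended and robust moderation, array weights, the replicate number as a block, a filter on SD, no fold threshold, gene means, and each array left out. The number of arrays limits the precision.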

Additional observations from a re-analysis of the deposited data

How the results depend on the processing

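The count of the 10 probe sets called in the prefrontal cortex was 7, and it was 4 with the methods' t-test and 2 with the replicate block, where the Bpifb9b probe sets alone passed. These counts are a description, since this contrast chose the genes. Same-numbered CMS and control arrays of an area had deviation correlations of -0.0581 to 0.0135, so the numbers show no pairing of CMS with control arrays. Whether same-numbered arrays of different areas came from the same mice was not tested. Without the fold threshold the count was 1 in the amygdala and 7 in the hippocampus, against 0 in both, and under the other alternatives it stayed at 0 in the 3 areas outside the prefrontal cortex. Quantile normalization was applied to the centred values, the only ones in the deposited table. With it the prefrontal differences of Omp were -0.176 and -0.0653. Stoml3 was at 0.557 and 1.33, Cbr2 at 2.06 and Bpifb9b at 5.49 and 4.46. The cause of these shifts was not tested. Cyp2f2 lost its call without control replicate 3. Stoml3 1441036_at kept its call without control replicate 1 and lost it without each other array, and 1447847_x_at kept it without control replicate 3 and lost it without each other array. Omp was called on 1422199_at with array weights and on 1422200_at without CMS replicate 2.

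Genes of the epithelial, olfactory and airway lists called in the amygdala numbered 2, and 2 to 4 with 1 array left out, the 4 being without CMS replicate 2. In the cerebral cortex the count was 1, and 0 to 2 with 1 array left out, the 2 being without control replicate 3. In the hippocampus it was 2, and 0 with quantile normalization. In the prefrontal cortex it was 4, and 3 to 5 under the alternatives. The table has no signal over background, so how far each probe set stood above background is unknown.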
